A study of Homo sapiens with 4 samples.

Results

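The genes described here are 7 members of the sodium pump system, 4 FXYD genes (FXYD5, FXYD2, FXYD3 and FXYD6) and 3 genes for pump beta subunits (ATP1B1, ATP1B2 and ATP1B3), out of 39634 genes with values in a table of raw read counts. They were chosen by gene symbol, and FXYD5 was picked because it was lower in these data, so its difference between the groups is given as a description, without a test. The RNA came from BEAS-2B, an established line of immortalised human bronchial epithelial cells, grown in N2B27 medium. Of 4 libraries, 2 came from cells with a short hairpin RNA (shRNA) against Fer and carry the genotype label Fer knockdown and the title shFer, and 2 came from cells with a control shRNA and carry the labels CTL and shControl. Fer is a cytoplasmic tyrosine kinase, and the series compared gene expression with its knockdown and without it. The sources used here do not give the hairpin sequences, the vector, or whether the cells were pools or clones, and nothing says that the numbered replicates came from separate cultures. A p-value here therefore sets a difference only against the spread of these samples, which the test partly shares between genes, and that spread may be technical.

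The sodium pump, or Na,K-ATPase, spends ATP to move sodium out of the cell and potassium into it, and in airway epithelium it drives sodium and fluid absorption. A catalytic alpha subunit carries the ions, and a glycosylated beta subunit is needed for its assembly and its delivery to the cell surface. FXYD proteins are small, single-span membrane proteins that bind this complex and tune its kinetics. They are named after a short conserved motif next to the membrane, and FXYD5, also called dysadherin, differs from the others in a long extracellular stretch ahead of it. The coding bases around the motif, shown because the motif defines the family, were taken from 1 protein-coding GENCODE release 29 transcript of each gene, the one with the longest coding sequence in the highest APPRIS principal class, and capitals mark the 15 bases that encode the motif:
FXYD5: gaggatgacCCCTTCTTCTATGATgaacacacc
FXYD2: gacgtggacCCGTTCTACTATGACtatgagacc
FXYD3: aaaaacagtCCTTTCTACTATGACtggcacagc
FXYD6: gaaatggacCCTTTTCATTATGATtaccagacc
The motif began at codon 134 of 178 in FXYD5, at codon 18 of 66 in FXYD2, at codon 29 of 87 in FXYD3 and at codon 29 of 95 in FXYD6. Of the 15 bases, FXYD2 and FXYD3 each shared 12 with FXYD5, and FXYD6 shared 10.

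The libraries labelled shFer held 21422976 and 25169713 counts, and the control libraries held 21772587 and 22857051. FER itself, the target of the hairpin, was no lower in those labelled shFer, with 404 and 535 counts against 334 and 459 in control and groups that overlapped, so each direction here goes by the labels. On values scaled by TMM and set to a common library size (CPM), the log2 change of FER, labelled shFer over control, was 0.02 ± 0.17 (SE), and its adjusted p was 0.976 (edgeR's quasi-likelihood test). Across 15336 tested genes, 99 (0.646%) passed an adjusted p of 0.05, 43 higher (0.28%) and 56 lower (0.365%), and with library totals as the only scaling 396 were higher and 47 lower. Of all 15336, 17.7% had an unadjusted p under 0.05 in edgeR's test, and DESeq2 called 580. The median SD of log2 CPM over genes was 0.0829 in the libraries labelled shFer and 0.184 in control, so they spread unequally. A fit with 1 library left out takes its spread from the group that keeps 2 libraries, so only log2 changes are given for it. Counts on the mitochondrial chromosome made up 9.62% and 9.37% of the libraries labelled shFer, against 16.9% and 19.4% of the control libraries. Of 10 epithelial markers 9 were tested and 0 passed (2 at an unadjusted p under 0.05, 0 in DESeq2). The keratin gene KRT8 averaged 1837 CPM in the libraries labelled shFer and 1848 CPM in control, and the basal cell keratin KRT5 had at most 12 counts in a library. Summed CPM of the epithelial markers ran from 3007 to 3039 in the libraries labelled shFer and from 2866 to 3550 in control. Mesenchymal markers were also abundant, summing to 3216 to 3357 CPM in the libraries labelled shFer and 4121 to 4846 CPM in control, and of 7 tested 1 fell and 0 rose (4 at an unadjusted p under 0.05, 3 called in DESeq2). The one that fell was THY1, a surface glycoprotein of fibroblasts, at -0.77 ± 0.12 (log2 change, SE, adjusted p = 0.0302). Of its exonic sequence, 10.7% lies in exons of another gene, and its values in the alternative settings are not given here. Chosen after their values were seen, VIM was at -0.59, COL1A1 at -0.46 and COL3A1, with 26 and 20 counts in libraries labelled shFer against 10 and 5 in control, at 1.39 (log2 change, adjusted p = 0.0549, 0.112 and 0.248). The largest term of the sum, FN1, was at 2004 and 1901 CPM in libraries labelled shFer, against 2003 and 2936 CPM in control. Its groups overlapped, at -0.34, and CDH2 was at -0.11 and PDGFRB at 0.01 (log2 change, adjusted p = 0.311, 0.783 and 0.985). Both COL1A2, at 0 to 3 counts, and the blood cell markers, at 1 to 8 counts in sum with CD3E and HBB at 0 throughout, were near 0. Endothelial markers summed to 1.32 and 1.77 CPM in the libraries labelled shFer and 2.49 and 1.57 CPM in control, with 0 of 2 tested past the threshold (0 at an unadjusted p under 0.05, 0 in DESeq2). Markers of ciliated and secretory airway cells summed to 14.4 and 16.7 CPM in libraries labelled shFer, against 15.5 and 18.1 CPM in control, with 0 of 3 past it (1 at an unadjusted p under 0.05, 0 in DESeq2).

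FXYD5 (ENSG00000089327, chromosome 19) was lower in both libraries labelled shFer, at 55.8% of its control level. It had 1840 and 2083 counts in the libraries labelled shFer, against 2918 and 3104 counts in the control libraries. On the scaled values these were 81.0 and 78.4 CPM in libraries labelled shFer, against 142.7 and 143.1 CPM in control. The groups did not overlap, and the libraries within each group lay close together. The means were 79.7 ± 1.84 CPM in the libraries labelled shFer and 143 ± 0.301 CPM in control (SD, n = 2 each), so that the log2 change was -0.84 ± 0.12 (SE). Since FXYD5 was chosen for this difference, no p is attached to it. Of the 15336 tested genes, 305 had a lower log2 change than FXYD5, and of the 7486 with a mean of at least 20 CPM, 31 did. In RNA from whole cultures, fewer cells that express FXYD5 and less FXYD5 mRNA per cell cannot be told apart. The mesenchymal marker sum and the mitochondrial share were lower in the same libraries, and the part of the marker sum in the value of FXYD5 was not tested. With the mitochondrial chromosome left out, FXYD5 was at -0.85 on the log2 scale. Its counts are not shared with another annotated gene: 0 of its 2993 exonic bases overlap another gene's exons, and 0 of the 3351 distinct stretches of 50 bases in its transcripts occur in transcripts of another gene.

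**Figure D1:**
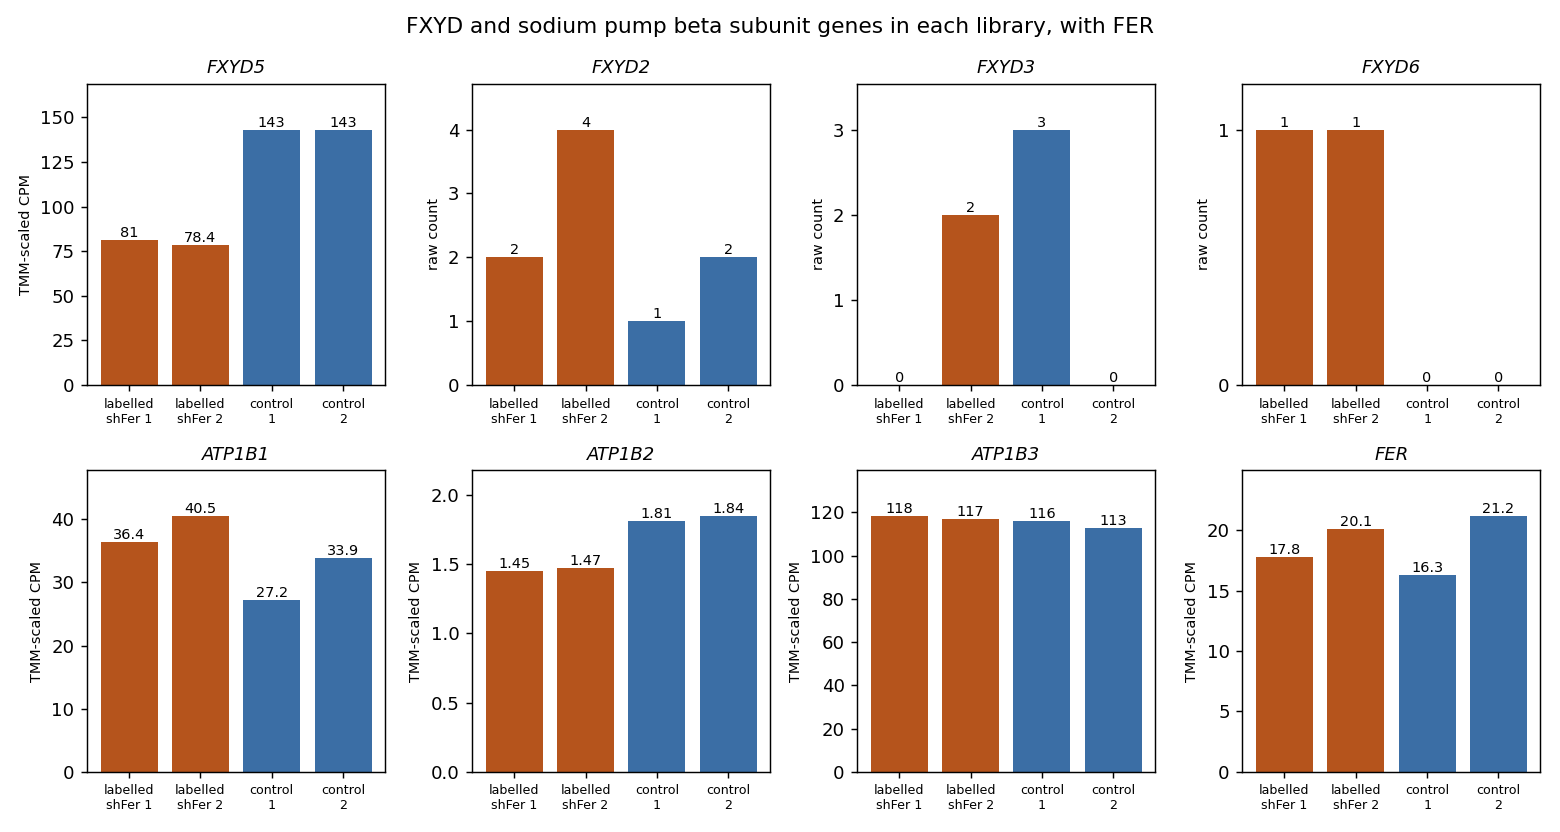
Level of each gene in each library, on axes that start at 0. Orange bars are the libraries labelled shFer and blue bars are control libraries, the unit is TMM-scaled CPM for FXYD5, ATP1B1, ATP1B2, ATP1B3 and FER, and raw counts for FXYD2, FXYD3 and FXYD6. FXYD5 stands at 81.0 and 78.4 CPM in the libraries labelled shFer and at 142.7 and 143.1 CPM in control, while ATP1B3 lies between 113 and 118 CPM in all 4 libraries.

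The sequence around the FXYD5 start site is shown because FXYD5 had the largest log2 change of the 4 tested members. It runs from 250 bases before the annotated start to 50 bases after it, from RefSeq on build GRCh38.p14, and 69.0% of its bases are G or C, against a median of 58.7% over 35116 promoters of the same length. Capitals mark matches, on either strand, to the letters CCAAT, to GGGCGG, to TATAAA and to TGANTCA (N is any base):
FXYD5 (chr19:35154485-35154784, + strand): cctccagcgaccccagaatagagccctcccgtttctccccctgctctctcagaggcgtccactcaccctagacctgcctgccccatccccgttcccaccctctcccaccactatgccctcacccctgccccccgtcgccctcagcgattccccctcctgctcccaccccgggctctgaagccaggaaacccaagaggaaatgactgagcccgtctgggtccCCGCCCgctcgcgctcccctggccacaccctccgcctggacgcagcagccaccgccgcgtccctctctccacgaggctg
The window held 1 match to GGGCGG, written on the opposite strand as CCGCCC and starting at base 222 of the 300, and 0 matches to the other letters, which says only that those are not in this window. Of all 35116 promoters, 45.0% held GGGCGG, 34.6% held CCAAT, 11.5% held TATAAA and 7.71% held TGANTCA. A match describes these letters and is not evidence of a bound factor.

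The other FXYD genes were at or near 0 in all 4 libraries, so FXYD5 was the only family member with more than 12 counts in a library. FXYD2, the gamma subunit of the kidney pump, had 2 and 4 counts in the libraries labelled shFer, against 1 and 2 counts in control. FXYD3, also known as Mat-8, had 0 and 2 counts in libraries labelled shFer, against 3 and 0 counts in control. FXYD6, also known as phosphohippolin, had 1 and 1 counts in libraries labelled shFer, against 0 and 0 counts in control. These 3 members did not pass the filter on low counts and were not tested. They lay around the limit that a count of 0 allows, 3 counts, which is 0.119 to 0.140 CPM in these libraries, so no fold change is given and no difference was detectable at this depth. Their small counts are also uncertain: 14.2% of the exonic bases of FXYD2 and 19.8% of those of FXYD6 overlap other genes, among them their read-through gene FXYD6-FXYD2, and 40.7% of those of FXYD3 overlap other genes. The read-through gene itself had 0 counts in every library.

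Among the FXYD and beta genes outside the 7 members, 1 of 5 was tested and 0 passed (edgeR's quasi-likelihood test; 0 at an unadjusted p under 0.05, 0 in DESeq2, which gave it no adjusted p). That gene was FXYD7, known from brain, with 6 and 12 counts in the libraries labelled shFer, against 10 and 4 counts in control. Its log2 change was 0.12 ± 0.71 (SE, adjusted p = 0.954), and it was -0.34 without replicate 2 of the libraries labelled shFer and -0.45 without control replicate 2. FXYD1, or phospholemman, known from heart and muscle, had 4 and 2 counts in libraries labelled shFer, against 1 and 4 counts in control. FXYD4, known from kidney, had 4 and 0 counts in libraries labelled shFer, against 1 and 0 counts in control. ATP1B4, a beta subunit relative found in muscle, had 0 counts in every library. Of all raw counts on the 7 genes FXYD1 to FXYD7, without regard to gene length, FXYD5 took 99.1% (exact 95% interval 98.5 to 99.5) and 99.0% (98.5 to 99.4) in the libraries labelled shFer, and 99.5% (99.1 to 99.7) and 99.7% (99.4 to 99.8) in control.

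Of the 3 beta subunit genes, 0 passed the test over all genes (edgeR's quasi-likelihood test; 0 at an unadjusted p under 0.05, 0 in DESeq2, which gave ATP1B2 no adjusted p). All 3, and FXYD5, had groups that did not overlap in CPM, as did 49.2% of all tested genes. FXYD5 and ATP1B2 were lower in both libraries labelled shFer, as were 23.4% of tested genes, and ATP1B1 and ATP1B3 were higher in both, as were 25.8%. ATP1B1 (ENSG00000143153, chromosome 1), the main beta subunit of most epithelia, was at 36.4 and 40.5 CPM in the libraries labelled shFer, against 27.2 and 33.9 CPM in control. Its means were 38.4 ± 2.87 CPM in the libraries labelled shFer and 30.6 ± 4.74 CPM in control (SD, n = 2 each). The log2 change was 0.33 ± 0.16 (SE), with a 95% confidence interval of -0.02 to 0.68 (adjusted p = 0.307). Control replicate 1 was the lowest library, and the value was 0.18 without it and 0.47 without control replicate 2. Of its exonic bases, 6.48% overlap exons of NME7, a gene whose reads cannot be told from it there without strand.

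ATP1B3 (ENSG00000069849, chromosome 3), a broadly expressed beta subunit also known as CD298, was at 118 and 117 CPM in the libraries labelled shFer, against 116 and 113 CPM in control. The means were 117.5 ± 0.933 CPM in the libraries labelled shFer and 114.5 ± 2.21 CPM in control (SD, n = 2 each). Its log2 change was 0.04 ± 0.12 (SE), with a 95% confidence interval of -0.23 to 0.30 (adjusted p = 0.909), and it was -0.01 without control replicate 2. The interval leaves out -0.84, the log2 change of FXYD5. As FXYD5 was chosen for its fall, this is not a test of a difference between the 2 genes. A share of 1.07% of the stretches of 50 bases in its transcripts also occurs in its pseudogene ATP1B3P1. ATP1B2 (ENSG00000129244, chromosome 17), a beta subunit of glia first described as an adhesion molecule, was at 1.45 and 1.47 CPM in the libraries labelled shFer, against 1.81 and 1.84 CPM in control. These rest on 33 and 39 counts in libraries labelled shFer, against 37 and 40 counts in control. The log2 change was -0.32 ± 0.34 (SE), with a 95% confidence interval of -1.08 to 0.44 (adjusted p = 0.672). At this depth a change as large as that of FXYD5 would lie within the interval of ATP1B2.

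Promoter windows of the 2 abundant beta subunit genes are shown beside that of FXYD5 as a description. FXYD5 carries no test here, so the windows do not set a changed gene against unchanged ones. They have the same span, source and build, and capitals mark the same letters:
ATP1B1 (chr1:169106440-169106739, + strand): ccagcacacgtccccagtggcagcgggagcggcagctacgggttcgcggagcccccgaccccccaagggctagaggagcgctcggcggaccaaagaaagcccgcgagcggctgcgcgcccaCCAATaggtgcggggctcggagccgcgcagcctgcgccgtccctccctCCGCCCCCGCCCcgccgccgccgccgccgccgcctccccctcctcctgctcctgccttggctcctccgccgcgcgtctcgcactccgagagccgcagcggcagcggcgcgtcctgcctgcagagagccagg
ATP1B3 (chr3:141876393-141876692, + strand): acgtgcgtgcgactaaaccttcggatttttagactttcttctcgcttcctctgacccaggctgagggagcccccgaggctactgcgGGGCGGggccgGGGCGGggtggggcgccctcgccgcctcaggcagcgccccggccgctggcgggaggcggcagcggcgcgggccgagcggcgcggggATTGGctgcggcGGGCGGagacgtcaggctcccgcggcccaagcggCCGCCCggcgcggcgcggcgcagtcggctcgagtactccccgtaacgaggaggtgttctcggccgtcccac
The ATP1B1 window is 77.0% G or C and held 1 match to CCAAT and 2 to GGGCGG. That of ATP1B3 is 75.0% G or C and held 1 match to CCAAT and 4 to GGGCGG. Neither held TATAAA or TGANTCA. Of the 7 members, 6 had a promoter in the RefSeq table.

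Between genes, levels can be compared only per length, and FXYD5 held a different place in the order in each group. Levels were divided by the deposited gene length, which spans all exons of a gene, and are given as CPM per kilobase. In the libraries labelled shFer the order was ATP1B3 at 44.9 ± 0.357, FXYD5 at 26.7 ± 0.614, ATP1B1 at 13.4 ± 1.00 and ATP1B2 at 0.422 ± 0.00312 CPM per kilobase (SD, n = 2). In the control libraries it was FXYD5 at 47.8 ± 0.101, ATP1B3 at 43.8 ± 0.844, ATP1B1 at 10.7 ± 1.65 and ATP1B2 at 0.527 ± 0.00714 CPM per kilobase (SD, n = 2). No neighbours in either order had overlapping libraries. With the length of a single principal transcript, the longest in the highest APPRIS class, in place of the deposited length, FXYD5 was at 50.5 ± 1.16 and ATP1B3 at 64.9 ± 0.515 CPM per kilobase in the libraries labelled shFer, and FXYD5 was at 90.5 ± 0.191 and ATP1B3 at 63.2 ± 1.22 CPM per kilobase in control (SD, n = 2 each). Under both lengths FXYD5 was the highest of these 4 genes in control and stood below ATP1B3 in the libraries labelled shFer. This restates the difference for which FXYD5 was chosen.

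**Figure D2:**
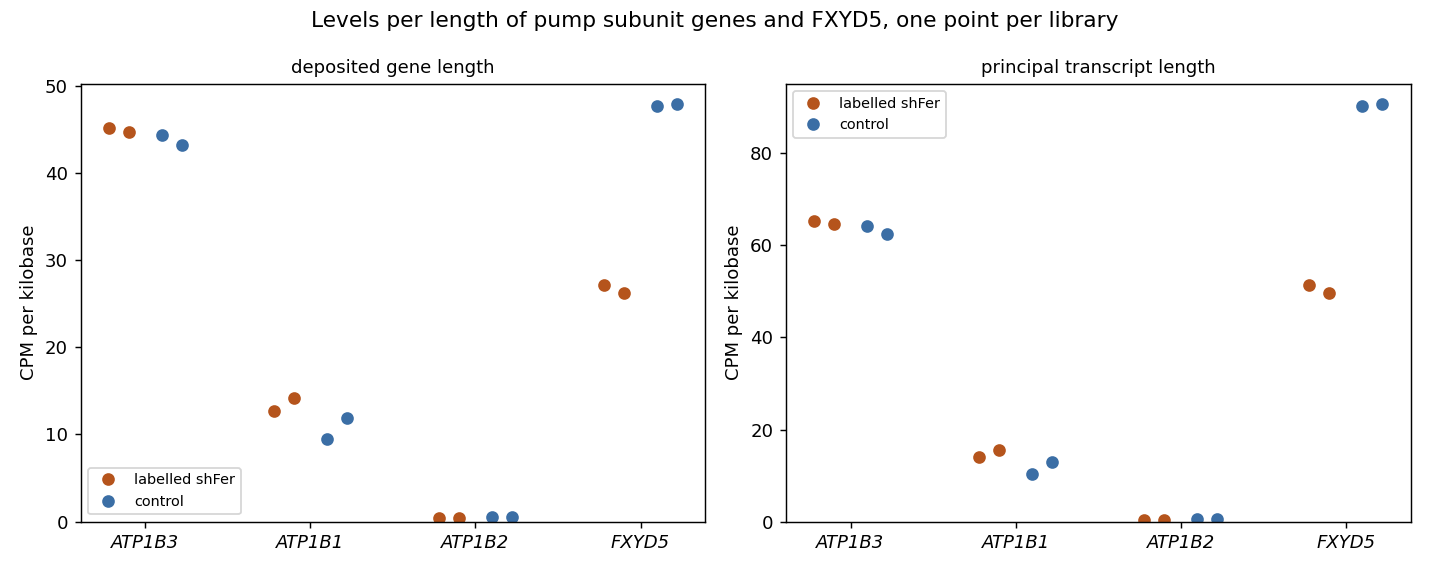
Levels per length of 4 genes in CPM per kilobase, on linear axes from 0, with the deposited gene length on the left and the principal transcript length on the right. Each point is 1 library, orange for labelled shFer and blue for control, and the FXYD5 points lie at 26.2 to 27.1 in the libraries labelled shFer and at 47.7 to 47.9 in control on the left.

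Ratios of 2 genes within a library do not depend on how libraries are scaled. They are given as descriptions, since 2 libraries against 2 cannot reach an exact two-sided permutation p below 0.33. FXYD5 over ATP1B3, in counts per base of the deposited length, was 0.600 and 0.587 in the libraries labelled shFer, against 1.08 and 1.11 in control. This ratio stood below 1 in the libraries labelled shFer and above 1 in control, as it also did with the principal transcript length. On the log2 scale it differed by -0.88, labelled shFer over control, and by -0.90 to -0.86 with 1 library left out. FXYD5 over ATP1B1 was 2.13 and 1.86 in the libraries labelled shFer, against 5.02 and 4.04 in control, a log2 difference of -1.18. The groups did not overlap in either ratio. FXYD5 was chosen for being lower, so both ratios restate that difference and add no support for it. The second also holds the log2 change of 0.33 in ATP1B1. ATP1B1 over ATP1B3 was 0.281 and 0.316 in libraries labelled shFer, against 0.214 and 0.275 in control, a log2 difference of 0.30, with 0.12 once control replicate 1 is left out and 0.48 once control replicate 2 is left out. Of the 3 beta genes per length, ATP1B3 made up 77.5% and 75.4% in the libraries labelled shFer, against 81.6% and 77.7% in control. ATP1B1 made up 21.8% and 23.9% in libraries labelled shFer, against 17.5% and 21.3% in control.

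**Figure D3:**
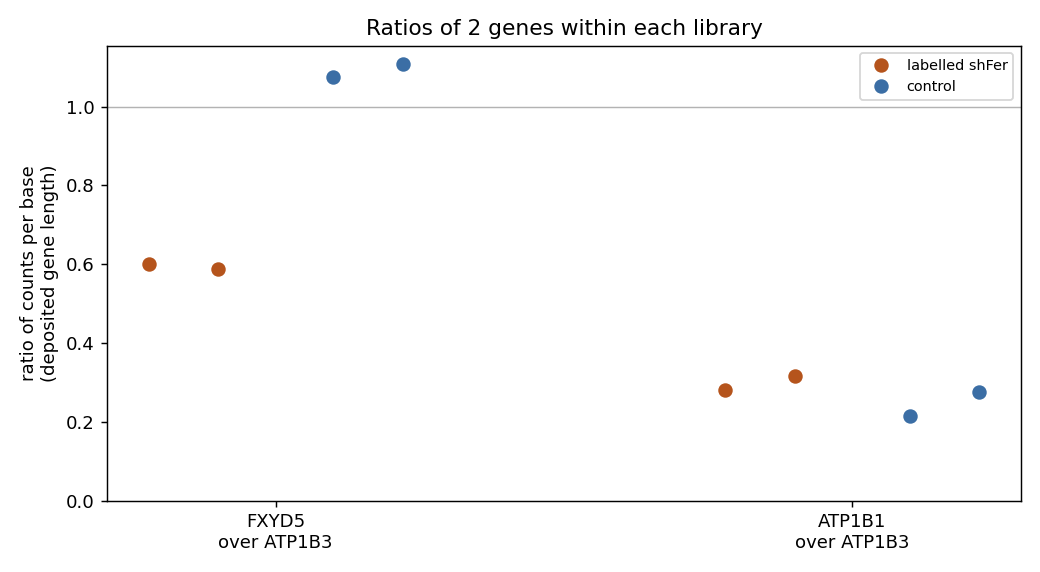
Ratios of 2 genes within each library, in counts per base of the deposited gene length, on a linear axis from 0 with a line at 1. Each point is 1 library, orange for labelled shFer and blue for control, and FXYD5 over ATP1B3 is 0.600 and 0.587 in the libraries labelled shFer and 1.08 and 1.11 in control, while ATP1B1 over ATP1B3 is 0.281 and 0.316 in the libraries labelled shFer and 0.214 and 0.275 in control.

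The other genes of cation transport were described by lists, whose medians are read against 0.01, the median log2 change of all 15336 genes. Of these genes, 17.7% had an unadjusted p under 0.05. Of 12 other P-type cation pumps, which include the calcium pumps of the endoplasmic reticulum and plasma membrane, 9 were tested and 0 passed (edgeR's quasi-likelihood test; 2 at an unadjusted p under 0.05, 0 in DESeq2), with a median log2 change of 0.04. The closest were ATP2C2, a calcium and manganese pump of the secretory pathway, and ATP2A3, a calcium pump of the endoplasmic reticulum. ATP2C2 had 11 and 12 counts in the libraries labelled shFer, against 22 and 25 counts in control, a log2 change of -1.24 ± 0.47 (SE, adjusted p = 0.212), and 26.2% of its exonic sequence lies in exons of another gene. ATP2A3 was at 6.56 and 6.48 CPM in libraries labelled shFer, against 3.57 and 4.93 CPM in control, a log2 change of 0.61 ± 0.23 (SE, adjusted p = 0.212). It was at 0.40 without control replicate 1 and at 0.84 without control replicate 2. ATP12A, ATP4A and ATP4B, which encode proton-potassium pump subunits related to the sodium pump, had at most 4 counts in a library.

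Of 22 genes for sodium entry and sodium-coupled transport, 19 were tested and 0 passed (edgeR's quasi-likelihood test; 6 at an unadjusted p under 0.05, 1 in DESeq2), with a median log2 change of 0.15. The closest was SLC9A3R1, which encodes NHERF1, a scaffold that anchors the sodium-proton exchanger NHE3. It was at 155 and 153 CPM in the libraries labelled shFer, against 221 and 216 CPM in control, a log2 change of -0.51 ± 0.11 (SE, adjusted p = 0.0757), and 11.3% of its exonic sequence lies in exons of other genes. DESeq2 called it (adjusted p = 0.0104), and it passed without a filter on low counts (0.0107) and with the replicate block (0.0199). These settings called 580, 993 and 990 genes in all, against 99 in the main fit. In edgeR's test it did not pass with DESeq2 size factors (adjusted p = 0.0692) or library totals alone (0.111). Nor did it with a filter of 5 CPM (0.0540) or the mitochondrial chromosome left out (0.0763). With 1 library left out it ran from -0.55 to -0.49. SLC5A3, a sodium-coupled inositol transporter, was at 25.2 and 23.6 CPM in libraries labelled shFer, against 13.8 and 18.6 CPM in control, a log2 change of 0.59 ± 0.18 (SE, adjusted p = 0.136). It passed without a filter on low counts (adjusted p = 0.0308) and with the replicate block (0.0189). In DESeq2, with the other scalings, with a filter of 5 CPM or with the mitochondrial chromosome left out, SLC5A3 did not pass. With 1 library left out it ran from 0.38 to 0.79. The epithelial sodium channel genes SCNN1B and SCNN1G had at most 7 counts in a library and were not tested. SCNN1A and SCNN1D, of the same family, were named after their values were seen. SCNN1A was at 23.1 and 20.4 CPM in libraries labelled shFer, against 27.9 and 28.6 CPM in control. SCNN1D was at 60.3 and 55.6 CPM in libraries labelled shFer, against 57.9 and 43.6 CPM in control. Their log2 changes were -0.38 ± 0.15 and 0.19 ± 0.16 (SE, adjusted p = 0.222 and 0.579).

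Of 14 kinases, ligases and receptors that regulate sodium transport, all 14 were tested and 0 passed (edgeR's quasi-likelihood test; 2 at an unadjusted p under 0.05, 0 in DESeq2), with a median log2 change of -0.06. PRKACA, a catalytic subunit of protein kinase A, was at 183 and 207 CPM in the libraries labelled shFer, against 272 and 241 CPM in control, a log2 change of -0.40 ± 0.13 (SE, adjusted p = 0.152). With 1 library left out it ran from -0.50 to -0.31. WNK1, a kinase that controls cation-chloride cotransport, was at 108 and 114 CPM in libraries labelled shFer, against 119 and 175 CPM in control, a log2 change of -0.40 ± 0.17 (SE, adjusted p = 0.261). It was at -0.12 without control replicate 2 and at -0.66 without control replicate 1.

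FXYD5 is known in tumour cells for weakening E-cadherin adhesion and for raising the chemokine CCL2, so these genes and the catenins were read as well. Of the 6, all were tested and 0 passed (edgeR's quasi-likelihood test; 3 at an unadjusted p under 0.05, 1 in DESeq2), with a median log2 change of -0.01. CDH1, the E-cadherin gene, was at 9.78 and 10.5 CPM in the libraries labelled shFer, against 7.53 and 7.33 CPM in control, a log2 change of 0.45 ± 0.18 (SE, adjusted p = 0.239). JUP, which encodes plakoglobin, was at 105.5 and 105.9 CPM in libraries labelled shFer, against 146 and 145 CPM in control, a log2 change of -0.46 ± 0.12 (SE, adjusted p = 0.0960). DESeq2 called it (adjusted p = 0.0284), and it passed without a filter on low counts (0.0367) and with the replicate block (0.0449). With the other scalings, a filter of 5 CPM or the mitochondrial chromosome left out, JUP did not pass. With 1 library left out it ran from -0.49 to -0.46. CCL2, named after its values were seen, averaged 124 CPM in the libraries labelled shFer and 131 CPM in control, a log2 change of -0.08 ± 0.12 (SE, adjusted p = 0.784).

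Beta subunits are glycosylated and assembled with alpha subunits in the endoplasmic reticulum. Of 7 chaperone genes of that compartment, all were tested and 0 passed (edgeR's quasi-likelihood test; 1 at an unadjusted p under 0.05, 0 in DESeq2), with a median log2 change of -0.04. PDIA3, a disulfide isomerase for glycoproteins, was at 305 and 311 CPM in the libraries labelled shFer, against 394 and 383 CPM in control, a log2 change of -0.33 ± 0.11 (SE, adjusted p = 0.168), and 18.9% of its exonic sequence lies in exons of other genes. With 1 library left out it ran from -0.38 to -0.32. CALR, the chaperone calreticulin, averaged 1488 CPM in libraries labelled shFer, against 1647 CPM in control, a log2 change of -0.15 ± 0.11 (SE, adjusted p = 0.538). It was 0.02 with library totals alone and -0.24 without control replicate 2.

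FXYD5 lies close to FXYD3, FXYD1 and FXYD7 on chromosome 19 in GENCODE release 29, and the 10 protein-coding genes nearest to it include all 3. Of these 10, 9 were in the table, 5 were tested and 0 passed (edgeR's quasi-likelihood test; 2 at an unadjusted p under 0.05, 1 in DESeq2), with a median log2 change of 0.12. USF2, a helix-loop-helix transcription factor, was at 97.8 and 102 CPM in the libraries labelled shFer, against 153 and 127 CPM in control, a log2 change of -0.49 ± 0.13 (SE, adjusted p = 0.115). DESeq2 called it (adjusted p = 0.0406), and it passed without a filter on low counts (0.0250) and with the replicate block (0.0348). With the other scalings, a filter of 5 CPM or the mitochondrial chromosome left out, USF2 did not pass. With 1 library left out it ran from -0.64 to -0.35. HPN, the transmembrane serine protease hepsin, had 23 and 25 counts in libraries labelled shFer, against 9 and 6 counts in control, a log2 change of 1.44 ± 0.53 (SE, adjusted p = 0.198), and 10.3% of its exonic sequence lies in exons of another gene. LSR, a lipoprotein receptor of tricellular junctions, and LGI4, a secreted glial protein, both named after their values were seen, were at 0.05 ± 0.13 and 0.34 ± 0.30 (SE, adjusted p = 0.876 and 0.602).

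**Figure D4:**
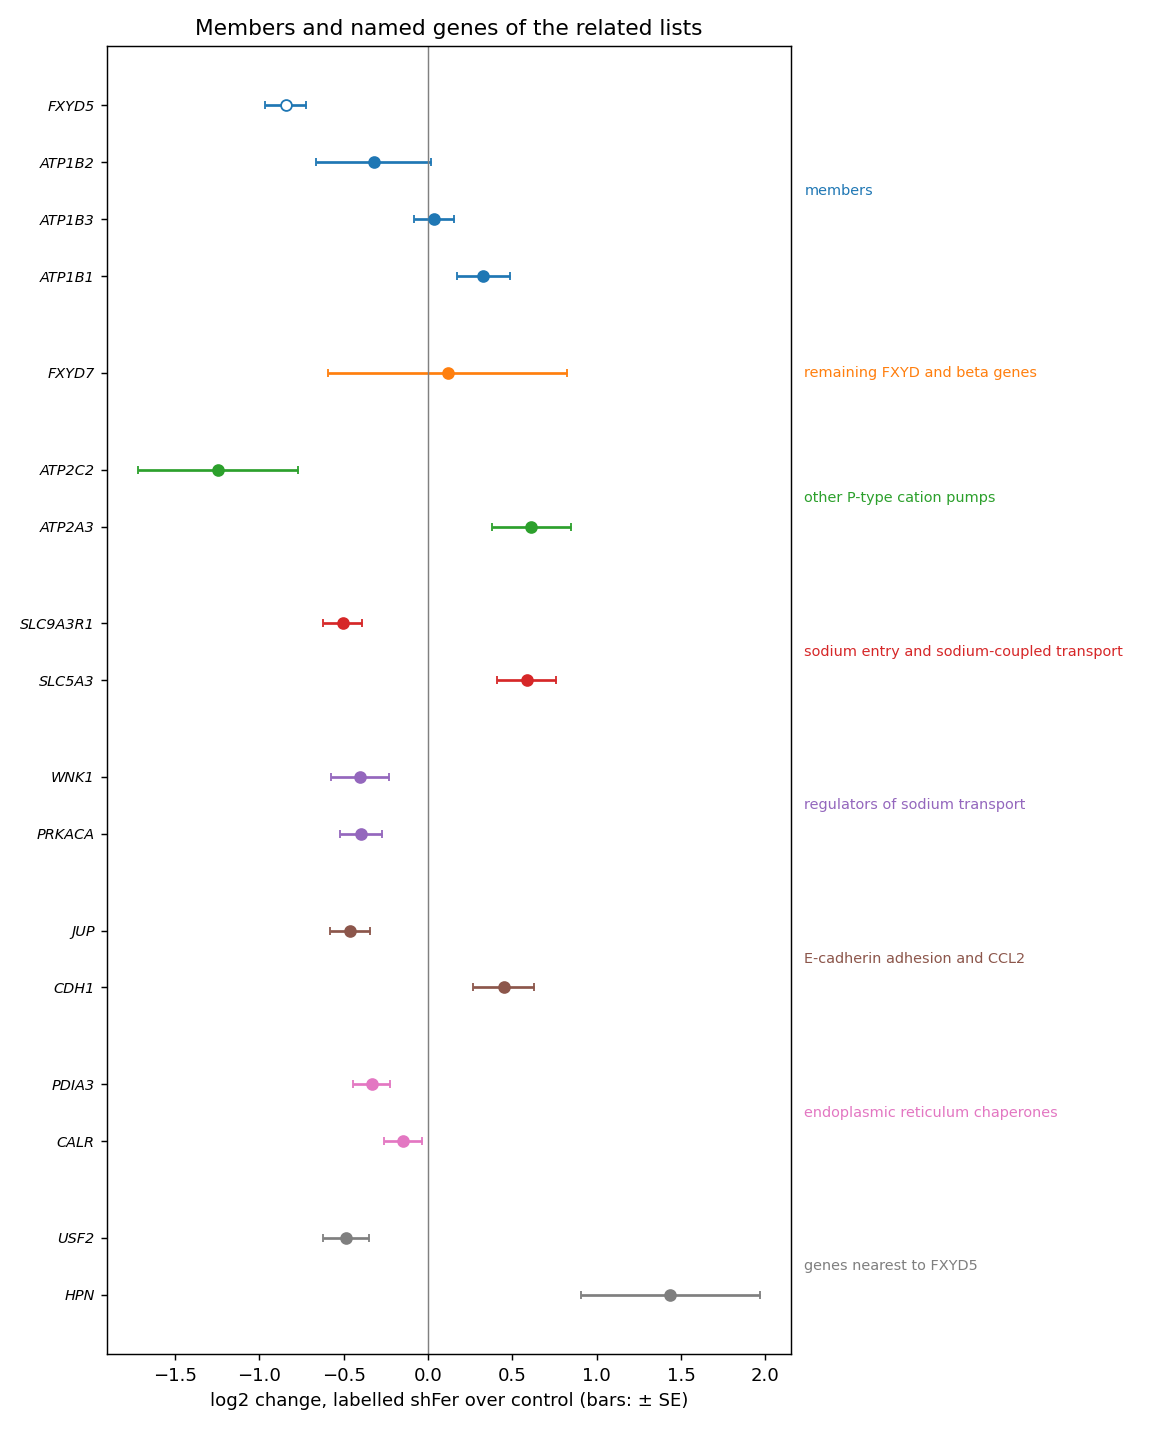
Log2 changes, labelled shFer over control, of the tested members and of the named genes of each related list, with bars of 1 SE on either side and a line at 0. FXYD5, drawn open because it was chosen for its difference, is at -0.84, ATP1B3 is at 0.04, and ATP1B1 is at 0.33.

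Genes whose levels follow FXYD5 over the 4 libraries were found by the Euclidean distance between log2 CPM profiles, each centred on its own mean, among genes with a mean of at least 20 CPM. The 5 nearest were OLFML2B, an olfactomedin-domain matrix protein, PLP2, a small membrane protein, PHLDA2, an imprinted gene that restrains placental growth, ARHGDIB, a GDP dissociation inhibitor, and DCP1B, an mRNA decapping factor. Their distances were 0.0544, 0.0838, 0.0845, 0.1 and 0.101 log2 units, and 29 genes lay within 0.2. OLFML2B averaged 18.6 ± 0.730 CPM in the libraries labelled shFer and 33.9 ± 0.938 CPM in control (SD, n = 2 each), and PLP2 averaged 117 ± 5.29 CPM in the libraries labelled shFer and 199 ± 2.39 CPM in control. With 4 libraries in 2 groups, any gene with a like difference between the groups and a small spread within them comes out near FXYD5, so the list is a description, with no test.

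**Figure D5:**
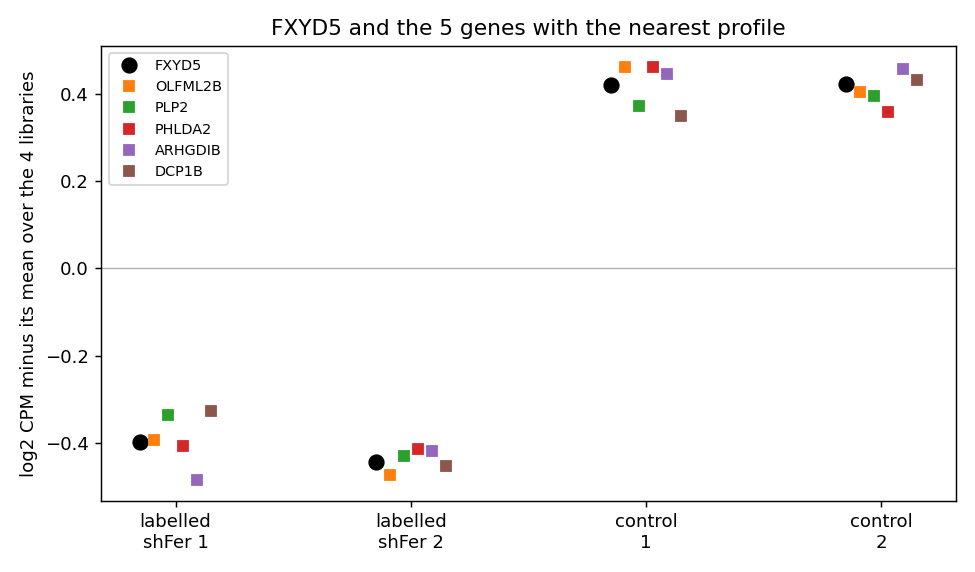
Log2 CPM minus its mean over the 4 libraries for FXYD5 (black circles) and the 5 genes with the nearest profile (coloured squares), side by side within each library. All 6 genes lie below 0 in both libraries labelled shFer and above 0 in both control libraries.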

How the data were processed

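The authors deposited raw read counts per gene, beside a length for each gene, per the file headers. Polyadenylated RNA had been selected and prepared with a TruSeq kit, per the labels' protocols. The tools HISAT2, featureCounts and DESeq2 and the builds hg19 and mm10 are listed, without versions or roles, per the submitters' processing notes; the sources used here give neither strand setting nor annotation. Replicate 1 labelled shFer has a column with an abbreviated name, matched by its number. Of 39635 rows, 1 held no values and was left out.

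The test was run in edgeR 4.0.16 and R 4.3.3 on the counts as deposited: filterByExpr defaults (15336 genes kept), TMM scaling (factors 1.06 and 1.06 for the libraries labelled shFer, 0.94 and 0.949 for control), the two-sided quasi-likelihood test with no block, and Benjamini-Hochberg adjustment over all tested genes at 0.05. The model had 2 residual degrees of freedom among the 4 libraries, and each SE is the log2 change divided by the root of its F statistic. The quasi-likelihood test moderates the spread of each gene with that of the other genes. Its p-values and 95% confidence intervals therefore rest on more than 2 degrees of freedom, and the intervals are narrower than 2 alone would give. The members and the gene lists were chosen with earlier results of these data known, so lists are described by counts and medians only. Named were all 7 members, detected FXYD and beta genes, and from each list up to 4 genes past the threshold or otherwise the 2 with the smallest p. Chromosomes, exon overlaps and transcripts came from GENCODE 29 (GRCh38), which matched 39581 identifiers, and promoters from RefSeq. In simulated counts for this comparison (15070 genes), the test recovered 19 of 67 genes at a 1.5-fold change, 60 of 67 at 2-fold and 66 of 66 at 4-fold, and it called 17 that had none. The changes were planted only in genes with a log2 mean CPM above 2, so recovery of lower genes was not tested. Each simulated gene had the same dispersion in both groups. Alternatives were other scalings and filters, DESeq2 1.42.0, the replicate block, leaving out the mitochondrial chromosome, and each library left out in turn; the principal transcript length was added after seeing the data.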

Additional observations from a re-analysis of the deposited data

How the results depend on the processing

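The count of 99 genes called became 443 with library totals alone, 993 without a filter on low counts, 580 in DESeq2 and 990 with the replicate block, and 56 to 4734 with 1 library left out (56 without shFer replicate 2, 3298 and 4734 without control replicates 2 and 1). A group that is left with 1 library is assumed to vary like the other. FXYD5 was at -0.68 when scaled by totals only, which put the median gene at 0.18, and at -0.87 to -0.82 with 1 library left out. With 1 library left out, ATP1B1 ran from 0.18 to 0.47, and ATP1B3 ran from -0.006 to 0.052. Directions turned for CALR (0.018 with library totals alone) and FXYD7 (-0.335 without shFer replicate 2 and -0.453 without control replicate 2, up to 0.947 without another library). The cause of these shifts was not tested. In the libraries labelled shFer, FXYD5 over ATP1B3 was 0.678 in raw counts and 0.777 by principal transcript length, and ATP1B1 over ATP1B3 was 0.327 and 0.227, by construction of the length term. Of the alternatives for the 13 other named genes, 3 turned direction, and 3 in DESeq2 gave no adjusted p (ATP2C2, FXYD7 and HPN), nor did DESeq2 for ATP1B2. Same-numbered replicates are not stated to share a culture, and their deviations from the group means correlated at 0.0373 over genes, so the block rests on the number only. With the replicate block FXYD5 was at -0.84. ATP1B2 has no value under the filter of 5 CPM, and FXYD2, FXYD3 and FXYD6 are limited by their depth of 0 to 4 counts. The exact intervals on the FXYD5 shares and the limit of 3 counts cover counting error only. The confidence intervals of the log2 changes come from the fit and also hold the spread between libraries.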
